A study of Mus musculus with 4 samples.

Results

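The genes described here are 10 components of the Notch pathway: the inhibitors Numb and Numbl, the receptors Notch1, Notch2 and Notch3, the ligands Dll1, Dll3 and Jag1, and the bHLH proteins Hes1 and Hes6. They were chosen by gene symbol, for their known role and with earlier results of these data known, from the 22667 mouse genes of the expression table. All 10 were found in it. The study itself singles out an exon of Numb in these libraries, so the values of that exon are a description and not independent evidence. It also reports more skipping of a Numb exon after knockdown by one-step RT-PCR (n = 3), without naming in its text which exon is meant. RNA-seq was performed in N2a cells, a mouse neuroblastoma line, transfected for 48 h with an siRNA and then treated for 4 h. The 4 groups crossed a non-targeting siRNA (siControl) or an siRNA against Arglu1 (siArglu1) with ethanol (Veh) or 100 nM dexamethasone (Dex), so that every group carried an siRNA. Dexamethasone is a synthetic agonist of the glucocorticoid receptor, and Arglu1 encodes an arginine- and glutamate-rich nuclear protein. The mRNA of 3 cultures went into 1 library per group, so no group has replicates, and no test between the libraries of a pair was possible. In such bulk RNA, fewer cells that express a gene and less RNA per cell cannot be told apart.

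Notch signaling passes between neighboring cells. A Delta or Jagged ligand on one cell binds a Notch receptor on the next, the receptor is cut by an ADAM protease and then by γ-secretase, and the released intracellular domain joins Rbpj and Mastermind proteins in the nucleus to switch on genes such as Hes1. Numb and its relative Numbl are endocytic adaptors that restrain the receptor, and Numb is handed unequally to daughter cells when neural progenitors divide; in the developing nervous system the pathway keeps progenitors from becoming neurons.

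The libraries held between 66074574 and 86541444 reads on genes. Arglu1 itself was at 26.3% of siControl in the siArglu1 Veh library and at 22.5% in the siArglu1 Dex library. Of 15 markers of sympathoadrenal neuroblastoma, 14 had enough reads to compare, with a summed level of 2214 to 2430 cRPKM (reads per kilobase of mappable transcript, scaled to library size); 4 of the 14 were higher and 2 lower past the knockdown threshold in Veh, and 4 higher and 3 lower in Dex. All 6 smooth muscle markers were also detected, summing to 9.64 and 9.71 cRPKM in the siControl libraries and to 183 and 199 in the siArglu1 libraries; 5 of the 6 were above the knockdown threshold in both pairs, and their part in the results below was not tested. The summed levels of the glial (1.65 to 2.09), endothelial (0.49 to 1.06), immune (0.44 to 0.63) and fibroblast lists (0.94 to 1.33 cRPKM) were low, with Foxd3 and Kdr at 0 reads in every library. Across 12484 genes, all measured in the same libraries, the log2 ratio of siArglu1 over siControl was related to mappable length with a Spearman's rho of −0.40 in Veh and −0.23 in Dex, and the ratio of Dex over Veh with a rho of −0.16 in siControl and 0.54 in siArglu1. Ratios with that trend removed are therefore given wherever they move a member.

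Hes6 was the most abundant of the 10 genes, followed by Numb, Numbl, Notch2 and Jag1, in every library. Hes6 lay between 19.93 and 22.58 cRPKM, Numb between 7.22 and 12.63, Numbl between 6.31 and 11.76, Notch2 between 3.53 and 4.53, and Jag1 between 0.45 and 0.89. Dll1 (0.09 to 0.34), Dll3 (0.23 to 0.27), Notch1 (0.05 to 0.08), Notch3 (0.05 to 0.09) and Hes1 (0.01 to 0.02 cRPKM) were all far lower. Numb was above Numbl in each of the 4 libraries, but the ranges of both genes overlapped, as did those of Dll1 and Dll3 and those of Notch1 and Notch3; Dll1 was above Dll3 in the siControl libraries and below it in the siArglu1 libraries. The ranges of Hes6, Notch2, Jag1 and Hes1 overlapped with that of no other member. In siControl Veh, 81.6% of the genes in the table had a lower cRPKM than Hes6, 73.0% a lower one than Numb, 58.0% a lower one than Notch2 and 38.5% a lower one than Notch1.

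**Figure D1:**
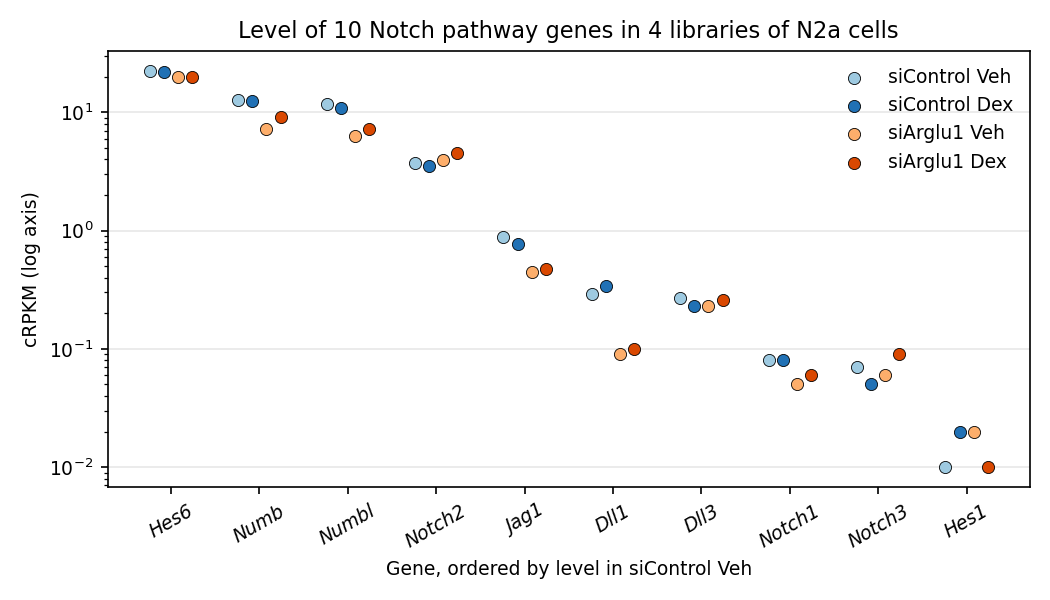
Level in cRPKM (log axis) of the 10 genes in the 4 libraries; each point is 1 library and there are no error bars, since each group has 1 library. Hes6, Numb, Numbl and Notch2 lie between 3.53 and 22.58 cRPKM. In Numb, Numbl, Jag1, Dll1, Hes6 and Notch1 both siArglu1 points are below both siControl points, and in Notch2 both are above. The share of all genes separated in this way was not computed.

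The first comparison asks how the inhibitors of the pathway responded to loss of Arglu1. Both were lower in the siArglu1 libraries, by a larger factor in Veh than in Dex. Numb (ENSMUSG00000021224; GRCm38 chr12:83794034-83921934, minus strand) had 1597 reads in Veh and 1715 in Dex in the siControl arm, and 920 in Veh and 1508 in Dex in the siArglu1 arm, which correspond to 12.63, 12.59, 7.22 and 9.11 cRPKM. Both siControl libraries were thus nearly equal and above both siArglu1 libraries. After scaling for library size, Numb in siArglu1 was at 58.5% of siControl in Veh (exact 95% interval 53.9 to 63.5) and at 72.0% in Dex (67.1 to 77.2), or log2 ratios of −0.77 and −0.47. These intervals, and all others given here for ratios, condition on the reads of the libraries compared and cover counting error only. The ratio in Veh missed the threshold of 0.81 on the log2 scale, the size that the study uses for knockdown, and passed it at −0.91 when the length trend was removed; 9.67% of the 12497 genes compared had a lower ratio.

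Numbl (ENSMUSG00000063160; GRCm38 chr7:27258433-27282144, plus strand) encodes the Numb-like adaptor, which overlaps with Numb in function. It had 2106 and 2105 reads in siControl Veh and Dex against 1140 and 1710 in siArglu1 Veh and Dex, or 11.76 and 10.9 against 6.31 and 7.29 cRPKM. The siArglu1 libraries did not overlap with the siControl libraries, and siArglu1 Veh was the lowest, as for Numb. The log2 ratio of siArglu1 over siControl was −0.86 in Veh (−0.97 to −0.76), past the threshold, and −0.59 in Dex (−0.68 to −0.50), short of it. Removing the length trend left −0.87 and −0.60. The knockdown ratio was closer to 0 in Dex than in Veh by 0.30 on the log2 scale for Numb (0.14 to 0.45) and by 0.27 for Numbl (0.14 to 0.41); with 1 library per group this difference was not tested against the spread between cultures.

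Splicing of Numb was also measured, as the percent spliced in (PSI), the share of transcripts that include an exon. Numb is known for isoforms that differ by a short insert in the phosphotyrosine-binding domain and by a longer insert in the proline-rich region, each made by a cassette exon that keeps the reading frame. The exons of 33 and 147 nt in the splicing tables, at mm9 chr12:85166209-85166241 and chr12:85138147-85138293, matched coding exons of Numb in GENCODE M21 by their length and by both flanking introns, at GRCm38 chr12:83825259-83825291 and chr12:83797197-83797343 on the minus strand. Their sequences, read from the GENCODE M21 transcripts, are shown because they are the stretches whose inclusion is compared, with the exon in capitals and 15 nt of the neighboring exons in lower case, 5′ to 3′ along the mRNA.
Numb 33-nt exon: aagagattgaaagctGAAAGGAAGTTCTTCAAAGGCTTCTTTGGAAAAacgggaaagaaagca
Numb 147-nt exon: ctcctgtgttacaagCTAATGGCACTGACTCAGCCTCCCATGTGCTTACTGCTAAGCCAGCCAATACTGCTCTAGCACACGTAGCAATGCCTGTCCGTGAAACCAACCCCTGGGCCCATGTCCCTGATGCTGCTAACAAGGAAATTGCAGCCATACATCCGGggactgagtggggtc
The shorter exon adds 11 codons and is 36.4% G or C, and the longer one adds 49 codons and is 53.7% G or C. A further cassette exon of 85 nt (mm9 chr12:85196390-85196474) lies in the 5′ UTR.

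The 147-nt exon was included less often in siArglu1 Veh than in any other library. Its PSI was 42.41 in Veh and 42.07 in Dex with siControl, and 25.96 in Veh and 34.09 in Dex with siArglu1. Both siControl libraries were again nearly equal and both siArglu1 libraries were lower, with a difference of −16.45 in Veh and of −7.98 in Dex. A difference of 15, the size used by the study, was thus reached in Veh and not in Dex. Of the 57183 splicing events with sufficient coverage, 1.52% had a difference at least as large in the Veh pair and 5.49% in the Dex pair. The coverage of this exon was the lowest of the Numb exons, with scores of LOW in 3 libraries and VLOW in siArglu1 Veh, the library with the lowest PSI. Among alternative splice sites, LOW went with 20 to 39 and VLOW with 10 to 19 junction reads. No junction reads are given for cassette exons, so whether these bands hold for them could not be checked and no interval could be made. Reads on the upstream and downstream junctions were marked as unbalanced (B1) in siControl Veh and siArglu1 Dex.

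The 85-nt exon of the 5′ UTR went the other way. Its PSI was 45.45 in Veh and 48.57 in Dex with siControl, and 61.9 in Veh and 61.67 in Dex with siArglu1. Both siArglu1 libraries were higher than both siControl libraries, by 16.45 in Veh and by 13.1 in Dex, and Dex moved neither arm by more than 3.12. Coverage was SOK in the siControl and OK in the siArglu1 libraries, and the reads were balanced in all 4. Among alternative splice sites, SOK went with 100 or more and OK with 40 to 99 junction reads, bands that could not be checked for cassette exons.

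Inclusion of the 33-nt exon was highest in the Dex libraries. The PSI was 19.76 in siControl Veh and 25.41 in siControl Dex, and 20.15 in siArglu1 Veh and 30.97 in siArglu1 Dex. Both Dex libraries were above both Veh libraries, by 5.65 in siControl and by 10.82 in siArglu1, while knockdown gave 0.39 in Veh and 5.56 in Dex. None of these differences reached 15. Coverage was SOK or OK throughout. In 2.25% of all covered events the difference between the siArglu1 libraries was at least as large as 10.82, and in 6.61% the difference between the siControl libraries was at least 5.65.

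Level and splicing of Numb can be combined as the product of cRPKM and PSI, an estimate without an error. For transcripts with the 147-nt exon the product was 5.36 in Veh and 5.30 in Dex with siControl, and 1.87 in Veh and 3.11 in Dex with siArglu1. In the same order it was 7.27, 7.29, 5.35 and 6.0 for transcripts without it. The siArglu1 Veh library thus held 35.0% of the siControl Veh level of the form with the exon and 73.5% of the form without it, against 58.6% and 82.3% in Dex. For the 85-nt exon of the 5′ UTR it was the form without the exon that was lower, at 39.9% in Veh and 53.9% in Dex, and the form with it was at 77.9% and 91.9%.

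**Figure D2:**
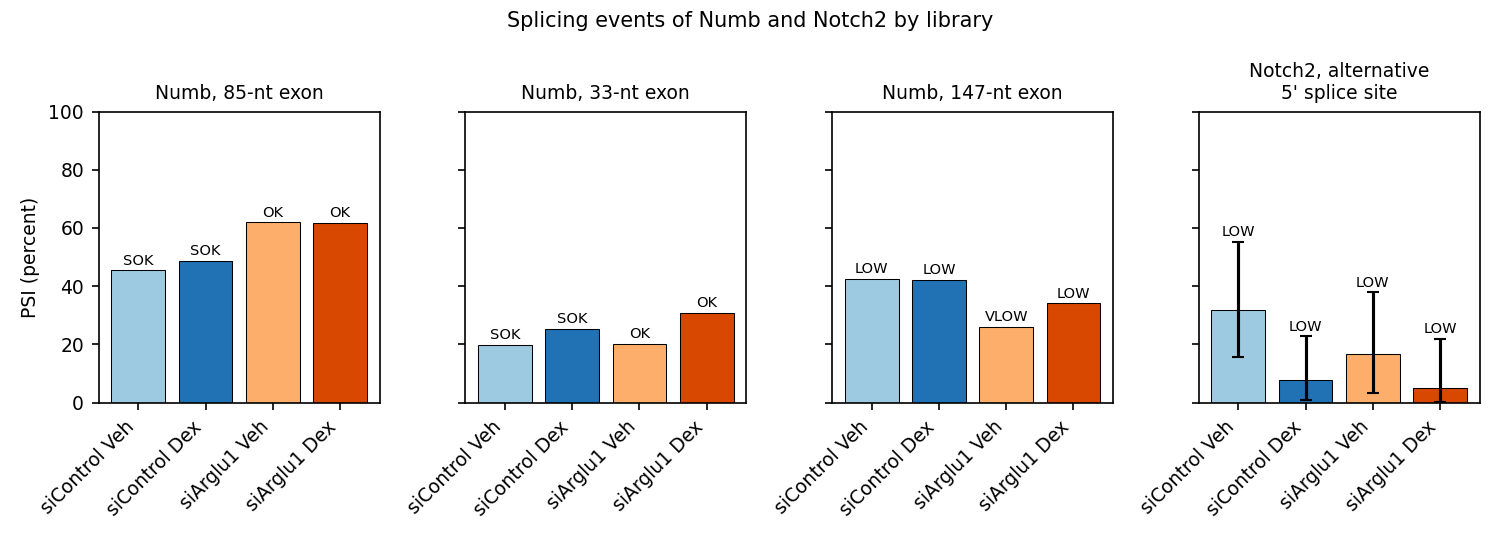
PSI in percent of the 3 cassette exons of Numb and of the alternative 5′ splice site of Notch2 in the 4 libraries, with the coverage score of each library above its bar; error bars are exact binomial 95% intervals of the junction reads, which only the Notch2 event has. Both siArglu1 bars are higher for the 85-nt exon (61.9 and 61.67) and lower for the 147-nt exon (25.96 and 34.09), while the 33-nt exon is highest in the Dex libraries (25.41 and 30.97).

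Of the ligands, Dll1 and Jag1 were lower in the siArglu1 libraries and Dll3 was not. Dll1 (ENSMUSG00000014773; GRCm38 chr17:15367354-15376872, minus strand), the Delta ligand that acts in lateral inhibition between neural progenitors, had 68 and 86 reads in siControl Veh and Dex, and 22 and 30 in siArglu1 Veh and Dex. Both siArglu1 libraries were thus well below both siControl libraries, although every count was small. The siArglu1 libraries held 32.9% of siControl in Veh and 28.6% in Dex, or log2 ratios of −1.57 (−2.37 to −0.89) and −1.77 (−2.46 to −1.19). Only 1.56% and 0.624% of the genes compared had lower ratios. Annotated exons of a gene on the opposite strand overlap those of Dll1, and likewise those of Numb, Notch1 and Notch3; the library kit does not mark strand, so reads of such partners could not be told apart. Dll1 was the only member past 0.81 in both pairs, which share no library, and removing the length trend left −1.47 and −1.73.

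Jag1 (ENSMUSG00000027276), the Jagged ligand, had 327 and 306 reads in siControl Veh and Dex, and 165 and 226 in siArglu1 Veh and Dex. In cRPKM, these were 0.89, 0.77, 0.45 and 0.47, so that the siArglu1 libraries lay together below the siControl libraries. The log2 ratio was −0.96 in Veh (−1.24 to −0.69) and −0.72 in Dex (−0.98 to −0.47), and only the first passed the threshold. With the length trend removed these became −0.66 and −0.58, and neither passed. Dll3, a divergent Delta ligand that blocks Notch within the cell, had 46 and 43 reads in siControl Veh and Dex, and 39 and 57 in siArglu1 Veh and Dex. Its libraries overlapped, and both intervals of the knockdown ratio (−0.87 to 0.43 in Veh and −0.48 to 0.72 in Dex) included 0.

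Notch2 was the most abundant of the 3 receptors, and its level was about the same or slightly higher after knockdown. There were 2604 and 2630 reads in siControl Veh and Dex, and 2746 and 4098 in siArglu1 Veh and Dex, or 3.77, 3.53, 3.94 and 4.53 cRPKM. Both siArglu1 libraries were above both siControl libraries by a small margin. The log2 ratio was 0.10 in Veh (0.02 to 0.18) and 0.35 in Dex (0.28 to 0.42). Notch2 has the longest mappable transcript of the members, at 10.5 kb, and with the length trend removed the ratios were 0.66 and 0.64, still under the threshold.

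Notch1 and Notch3 had few reads. Notch1 had 52 and 54 reads in siControl Veh and Dex, and 30 and 48 in siArglu1 Veh and Dex. The knockdown ratio was −0.75 in Veh (−1.47 to −0.10) and −0.45 in Dex (−1.05 to 0.13), and −0.24 and −0.19 with the length trend removed. Notch3, known for its role in vascular smooth muscle, had 36 and 30 reads in siControl Veh and Dex, and 34 and 65 in siArglu1 Veh and Dex, so that 1 library stood above the other 3. The ratio was −0.06 in Veh (−0.78 to 0.66) and 0.807 in Dex (0.18 to 1.5), just under the threshold, and 0.41 in Veh and 1.04 in Dex with the length trend removed. The smooth muscle markers were higher in both siArglu1 libraries, and their part in the Notch3 value was not tested.

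Hes6 differed little, and Hes1 could hardly be detected. Hes6, a bHLH protein that opposes Hes1 and favors neuronal differentiation, had 1919 and 1997 reads in siControl Veh and Dex, and 1707 and 2223 in siArglu1 Veh and Dex, or 22.58, 21.8, 19.93 and 19.97 cRPKM. The siArglu1 libraries were slightly below the siControl libraries, with log2 ratios of −0.15 (−0.24 to −0.05) in Veh and −0.13 (−0.22 to −0.05) in Dex, or −0.39 and −0.26 with the length trend removed. Hes1, the best known target of the pathway, had 1, 2, 2 and 1 reads in the 4 libraries. With so few reads no fold is given, and no difference was detectable at this depth.

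Of the members compared, 3 of 9 were past the threshold in the Veh pair (Numbl, Dll1 and Jag1, all lower), where 15.8% of all genes were, 8.77% lower and 7.0% higher. In the Dex pair 1 of 9 was past it (Dll1), against 12.1% of all genes, 5.93% lower and 6.19% higher. The log2 ratio was below 0 in 8 of 9 members in Veh and in 6 of 9 in Dex, with medians of −0.75 and −0.45, beside medians of 0.00379 and 0.00310 over all genes. With the length trend removed the member medians were −0.39 and −0.26, and Notch3 in Veh then lay above 0 (0.41). With the deposited cRPKM, to which 0.1 was added before the log2, the member medians were −0.26 and −0.17. Both are the values of Notch1, whose level of 0.05 to 0.08 cRPKM is below the constant added. In that setting Numb and Numbl were at −0.80 and −0.89 in Veh. A quasi-likelihood fit in edgeR with additive terms for siRNA and Dex, which leaves 1 residual degree of freedom over the 4 libraries, called 6 of 9 members, but it also called 61.6% of all genes (30.8% higher and 30.9% lower). Numb (log2 fold change −0.62, adjusted p = 2.03e-09), Numbl (−0.72, adjusted p = 4.86e-13), Dll1 (−1.72, adjusted p = 1.89e-10), Jag1 (−0.84, adjusted p = 5.21e-09) and Notch1 (−0.60, adjusted p = 0.0335) were lower in that edgeR model, and Notch2 (0.23, adjusted p = 0.0203) was higher. Notch3 (adjusted p = 0.169), Dll3 (adjusted p = 0.902) and Hes6 (adjusted p = 0.186) did not pass in edgeR. That model takes Veh and Dex libraries as replicates of the knockdown. Its 1 residual degree of freedom is the difference of the knockdown ratio between Veh and Dex, and its variance is shared across genes. A p from it therefore does not measure the spread between cultures of a group.

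**Figure D3:**
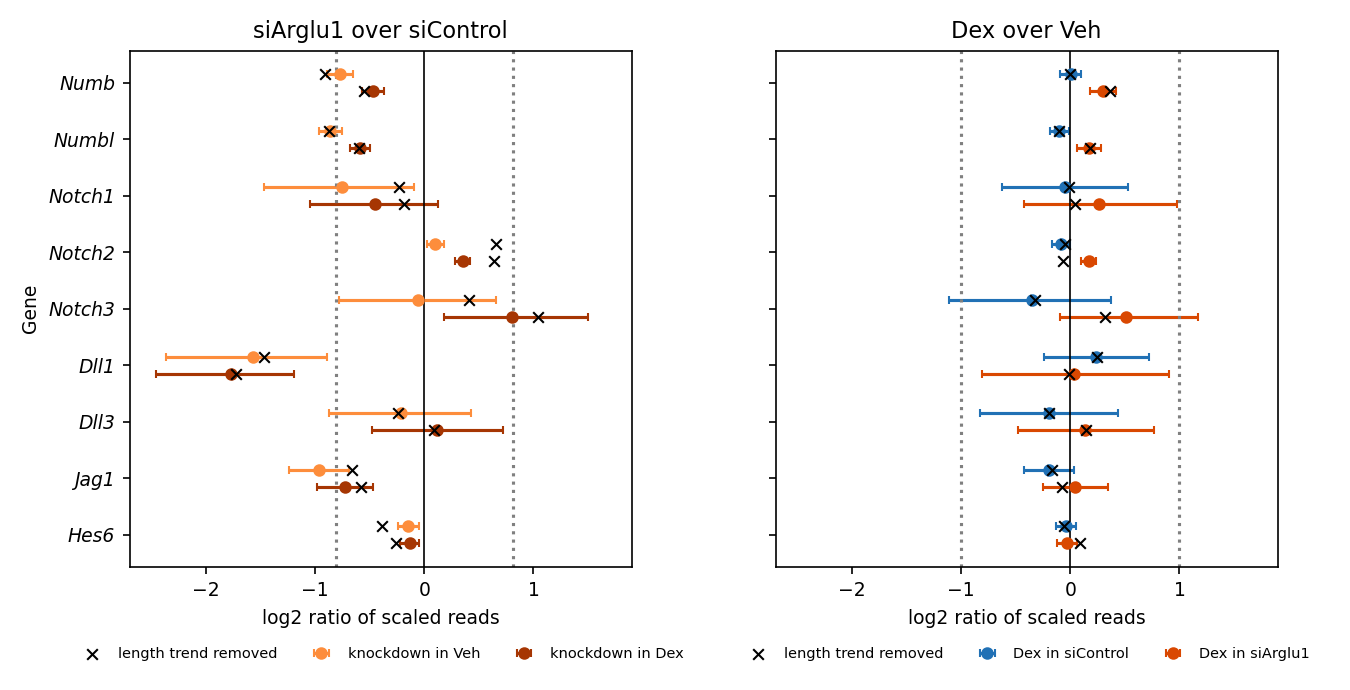
Log2 ratio of scaled reads of the 9 members compared, for siArglu1 over siControl on the left and Dex over Veh on the right; bars are exact 95% intervals (counting error only), crosses are the ratios with the length trend removed, and dotted lines mark the thresholds of 0.81 and 1. Dll1 lies past −0.81 in both knockdown pairs (−1.57 and −1.77), and no member reaches 1 with Dex.

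None of the 9 members reached a log2 ratio of 1 with Dex in either arm, where 0.464% of all genes did in siControl and 0.392% in siArglu1. In siControl, Numb was at 0.00 (−0.10 to 0.10), Numbl at −0.10 (−0.19 to −0.01), Notch2 at −0.09 (−0.16 to −0.01), Hes6 at −0.04 (−0.13 to 0.05) and Dll1 at 0.24 (−0.24 to 0.72). In siArglu1, Numb was at 0.30 (0.18 to 0.42), Numbl at 0.17 (0.07 to 0.28), Notch2 at 0.17 (0.10 to 0.24), Hes6 at −0.03 (−0.12 to 0.06) and Dll1 at 0.04 (−0.81 to 0.90). Notch3 had the value farthest from 0 in each arm, at −0.35 (−1.11 to 0.38) and 0.51 (−0.10 to 1.17), and both intervals included 0. The intervals of Jag1 (−0.19 and 0.04), Dll3 (−0.19 and 0.13) and Notch1 (−0.04 and 0.26) included 0 as well. The interval of Numb lay clear of 0 only in siArglu1. The ratio of Numb in siArglu1 was 0.36 with the length trend removed, whereas that of Notch2 was −0.07 and that of Hes6 was 0.09. No member was called for Dex in the additive edgeR model (adjusted p = 0.999 for all 9), in which 1.04% of all genes were; in the same edgeR model 0 of the 9 had an unadjusted p under 0.05.

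The splicing tables held 73 events in the 10 genes, 45 of them cassette exons or microexons, 14 alternative 3′ (Alt3) and 14 alternative 5′ splice sites (Alt5). A PSI in all 4 libraries was given for 30, and 13 had sufficient coverage, defined as LOW or better in at least 3 libraries. These were 4 each in Numb, Numbl and Notch2 and 1 in Hes6, and none in the genes with few reads, although Notch1 had 21 and Notch3 26 annotated events. In the Veh pair 3 of 13 events differed by at least 15 (the exons of 85 and 147 nt of Numb and a splice site of Notch2), where 1.96% of all covered events did, 0.843% with a higher and 1.11% with a lower PSI. In the Dex pair 0 of 13 did, against 1.52% of all events. With Dex, 1 of 13 did in siControl (Notch2; 0.719% of all events) and 0 of 13 in siArglu1 (0.948%).

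The Notch2 event is an alternative 5′ splice site 311 nt downstream of the end of a 506-nt coding exon (mm9 chr3:97939249-97940065 for the longer form). The longer form matched no exon in GENCODE M21. In siControl its PSI was 31.74 with Veh (24 junction reads, exact binomial 95% interval 15.6 to 55.3) and 7.72 with Dex (29 reads, up to 22.8). In siArglu1 it was 16.61 with Veh (20 reads, up to 37.9) and 4.88 with Dex (23 reads, up to 21.9). The siControl Veh library was the highest and both Dex libraries were the lowest, but the interval of siControl Veh overlapped with those of all 3 others. The difference was −24.02 with Dex in siControl and −11.73 in siArglu1, and −15.13 with knockdown in Veh and −2.84 in Dex. Differences of at least 24.02 with Dex in siControl were seen in 0.108% of all covered events.

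The other 9 covered events differed by at most 7.61 in any comparison. The 3 cassette exons of Numbl, of 75, 141 and 190 nt, were included at 96.85 to 100, and 3 of Notch2, of 154, 185 and 506 nt, at 95.41 to 100. In siArglu1 Veh the coverage of these Notch2 exons was N at 154 and 185 nt and VLOW at 506 nt. Among alternative splice sites, N, the lowest score, went with 0 to 9 junction reads. An alternative 3′ splice site of Numb that adds 9 nt was used at 97.5 to 100, and one of Hes6 that adds 6 nt at 100 in each library. A 5′ splice site of Numbl that adds 13 nt was used at 99.14 in Veh and 98.88 in Dex with siControl, and at 91.53 in Veh and 97.8 in Dex with siArglu1, on 59 to 116 junction reads, with siArglu1 Veh the lowest.

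Beyond the 10 members, 68 other genes of the pathway were listed by role, of which 60 had enough reads. Of these, 15 were lower and 2 higher past the threshold in the Veh pair (8.77% and 7.0% of all genes). In the Dex pair 9 were lower and 1 higher (5.93% and 6.19% of all genes). The median log2 ratios were −0.25 and −0.13, beside 0.00379 and 0.00310 over all genes. In both pairs and in the same direction 10 of 60 were past the threshold (16.7%, against 9.89% of all genes). With the length trend removed, Mib1 (−0.53 in Veh and −0.70 in Dex) and Ncor1 (−0.806 and −0.73) of these 10 passed in neither pair. The list was written with earlier results of these data known, so its shares are a description and not independent evidence. Of 10 genes of the Rbpj and Mastermind complex, 8 had a log2 ratio below 0 in Veh and 9 in Dex, where the medians over all genes were 0.00379 and 0.00310. Lower past the threshold were 4 in Veh (8.77% of all genes) and 1 in Dex (5.93%). The acetyltransferases Kat2b, Crebbp (−1.32) and Ep300 (−0.97) and the Mastermind gene Maml3 (−0.95) were lower past the threshold in Veh, and Kat2b was in Dex too (6526 and 6833 reads in siControl Veh and Dex, 2099 and 2965 in siArglu1 Veh and Dex, log2 ratios −1.61 and −1.49). Rbpj itself was at 0.19 and 0.29.

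Of 12 corepressors, 10 had a log2 ratio below 0 in each pair, where the medians over all genes were 0.00379 in Veh and 0.00310 in Dex. Among them, 5 were lower past the threshold in Veh (8.77% of all genes) and 3 in Dex (5.93%). The Groucho-family corepressors Tle2 (−2.11 in Veh and −1.83 in Dex) and Tle1 (−1.33 and −1.17) and the nuclear receptor corepressor Ncor1 (−1.30 and −0.99) were so in both, and Spen (−1.17), which binds Rbpj, and Tle3 (−0.85) in Veh only. Among 14 genes of endocytosis and ubiquitin ligases, 4 were lower past it in Veh and 3 in Dex, beside the same shares of all genes; the one in Veh alone was the Deltex gene Dtx1 (−1.03). The largest difference of the list was that of the ubiquitin ligase Dtx3l, with 949 and 857 reads in siControl Veh and Dex against 112 and 174 in siArglu1 Veh and Dex (−3.05 and −2.58). Mib1, the ligase that drives endocytosis of Delta and Jagged ligands, was at −1.08 and −0.98, and Lnx1, the ligase known for targeting Numb, at −1.10 and −1.07. With the length trend removed, the 17 genes of the list past the threshold in Veh became 11. Mib1 (−0.53), Ep300 (−0.49), Maml3 (−0.59), Spen (−0.55) and Tle3 (−0.76) then lay short of it, as did Ncor1 by a narrow margin (−0.806).

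The genes of γ-secretase, which releases the intracellular domain, and of the enzymes that glycosylate the receptor lay mostly above 0. All 7 γ-secretase genes had a log2 ratio above 0 in Veh and 6 of 7 in Dex, where the medians over all genes were 0.00379 and 0.00310. In Veh these include Aph1c at 0.02 (−0.66 to 0.70), on 39 reads in each library of the pair. Psenen, at 0.20 in Veh, was at −0.16 with the length trend removed. Of 5 glycosyltransferase genes, 4 were above 0 in each pair. Pofut1, which puts the first O-fucose on the receptor, had 2075 and 2309 reads in siControl Veh and Dex and 4678 and 6404 in siArglu1 Veh and Dex, a log2 ratio of 1.19 and 1.18, and was the only gene of the list higher in both pairs. Of 5 further target genes compared, 3 had a log2 ratio above 0 in each pair, with a median of 0.26 in both, but they were not the same 3. Nrarp was at 0.60 in Veh and 0.55 in Dex, and Hey1 at 0.26 and 0.41. Hes7 (0.68 and −0.51) and Hes5 (−0.30 and 0.26) changed sign between the pairs. Hey2, a repressor of the same family as Hes1, was lower past the threshold in both pairs (−0.90 and −1.15). The ligand-like Dlk2 was lower as well (−1.33 and −1.33), on 19 to 57 reads per library. With Dex, Hes7 alone was past 1, as 0.464% of all genes were in siControl and 0.392% in siArglu1. Its ratio was 1.03 in siControl (0.47 to 1.65), on 37 reads in Veh and 82 in Dex. In siArglu1 it was −0.16 (−0.68 to 0.36), on 59 and 70 reads, and the difference between the arms was not tested. Dll4, Dner, Hes2, Hes3, Heyl, Neurod1 and Neurog2 had too few reads to be compared.

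**Figure D4:**
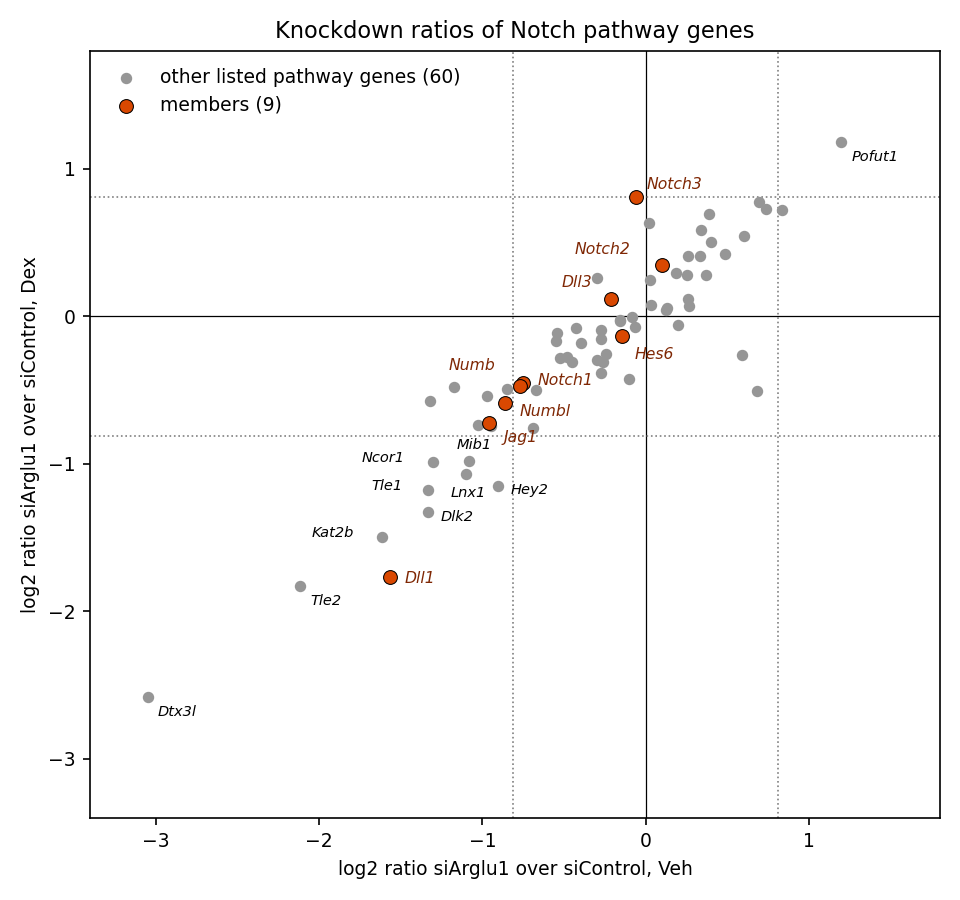
Log2 ratio of siArglu1 over siControl in Veh (x axis) and in Dex (y axis) for the 9 members (filled orange) and 60 other listed genes of the pathway (grey); the pairs share no library, dotted lines mark 0.81, and each point is 1 gene. Dll1 sits with Kat2b, Tle2 and Dtx3l at the lower left, Pofut1 at the upper right, and Numb, Numbl, Notch1 and Jag1 form a group between −0.96 and −0.75 in Veh.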

How the data were processed

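RNA-seq of N2a cells was performed by the authors on 1 pooled, polyA-enriched TruSeq V2 library per group (HiSeq2500). The authors deposited a count of reads per gene, not normalized, in which a blank stands for no read, and beside it RPKM corrected for mappability (cRPKM). Splicing was deposited as PSI, a percent made by the authors with vast-tools, with a coverage score per event, and junction reads for Alt3 and Alt5. The submitters' processing notes name Bowtie and mm9; their roles, the versions, the annotation and the use of strand in counting are not stated in the labels or the methods. A further 2 columns hold the authors' ratios and were not used.

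Reads were scaled with TMM factors (edgeR 4.0.16 and limma 3.58.1 in R 4.3.3), and a prior count of 1 was added before the log2. Genes whose reads over the 4 libraries summed to 75 or more were compared (12497). With 1 library per group a size rule took the place of a test: a log2 ratio of 0.81 for knockdown, 1 for Dex, and a PSI difference of 15 for events whose PSI was known in all libraries, 3 or more of them with LOW coverage or better. Intervals of ratios are exact and conditional on the reads, and those of PSI are exact binomial (Clopper-Pearson) on the nearest whole junction read. Mappable length was taken as reads over cRPKM, and its trend removed by lowess (span 0.3). An edgeR quasi-likelihood fit with Benjamini-Hochberg adjustment at 0.05, and DESeq2 1.42.0 size factors, were alternatives. The scripts were tested on simulated data. Exons were matched to GENCODE M21 (GRCm38) by length and flanking intron lengths, without converting coordinates.

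The members, the pathway list and the marker lists were chosen with earlier results of these data known. All 10 members are named. Other pathway genes are named where they pass 0.81 in both pairs in the same direction, at most 10, or 1 with Dex. Events of the members are named where they pass 15, as is every covered cassette exon of Numb. Rbpj, Nrarp, Hey1, Hes5, Aph1c, Psenen, the genes that passed 0.81 in Veh alone and the other covered events were named after their values were seen. Values of some listed genes are not reported here.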

Additional observations from a re-analysis of the deposited data

Results flagged for a closer look

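Numbl and Notch2 had Dex ratios of opposite sign in the siControl and siArglu1 arms, with all 4 counting intervals clear of 0. The log2 ratio of Dex over Veh was −0.10 for Numbl in siControl and 0.17 in siArglu1, and −0.085 for Notch2 in siControl and 0.17 in siArglu1. The difference between the arms was not tested, since each arm has 1 library per treatment. With the length trend removed, the ratios of Numbl were −0.10 and 0.18, and those of Notch2 were −0.05 and −0.07, which have the same sign.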

How the results depend on the processing

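With 1 library per group no replicate could be left out. The labels give no replicate numbers to pair samples by, and the edgeR model sets siArglu1 against siControl within Veh and Dex. Of the 36 ratios of single members (9 genes, 4 comparisons), none past a threshold changed sign. None moved by more than its counting error with DESeq2 size factors, total reads or a prior count of 5. With the deposited cRPKM 1 moved (Dll1 in the Dex pair, −1.14), where 0.1 was added to levels of 0.34 and 0.1 cRPKM. A further setting moved 8, the removal of the length trend. Removal of the length trend turned the sign of Notch2 with Dex in siArglu1 (0.17 to −0.07) and of Notch3 with knockdown in Veh (−0.06 to 0.41). It also turned Numb with Dex in siControl and Dll1, Jag1 and Hes6 with Dex in siArglu1, which were all under 0.1 in size. The median Dex ratio of the members in siArglu1 went from 0.17 to 0.092.

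Members past the knockdown size in Veh numbered 3, also with the length trend removed, when Numb (−0.91) was past it and Jag1 (−0.66) was not; there were 1 at a threshold of 1.5, 5 at 0.5 and 6 in the edgeR model. In Dex, 1 member was past it; there were 2 with total reads, 2 with the length trend removed, 4 at 0.5 and 6 in the edgeR model. Of the other pathway genes, 17 passed in Veh, with 11 after removal of the length trend, 3 at 1.5, 27 at 0.5 and 43 in the edgeR model; 10 passed in Dex, with 2 at 1.5, 25 at 0.5 and 43 in the edgeR model. Of member splicing events, 3 passed in the Veh pair, with 0 at a difference of 25, 9 without a minimum on coverage and 1 with OK coverage in all libraries. The Dex pair had 0, with 1 at a difference of 10 and 2 without a coverage minimum. Dex in siControl had 1, with 0 at 25, 4 without a coverage minimum and 0 with OK coverage. Dex in siArglu1 had 0, with 2 at 10 and 2 without a coverage minimum. The cause of these moves was not tested beyond what each setting does by construction.

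Depth limits Notch1, Notch3, Dll1, Dll3 and Hes1, which had at most 86 reads in any library, and the Numb 147-nt exon and Notch2 splice site, which had LOW coverage or less. It also limits the covered cassette exons of Notch2 in the Veh knockdown pair, which scored N or VLOW in siArglu1 Veh.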

Other observations

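The corepressor Ncor1 combined a lower level with an exon that was included more often. The exon, of 494 nt at mm9 chr11:62147165-62147658, had a PSI of 79.07 in Veh and 54.79 in Dex with siControl, and of 100 in Veh and 81.82 in Dex with siArglu1, all with SOK coverage. Knockdown raised the value by 20.93 in Veh and by 27.03 in Dex, and Dex gave −24.28 in siControl and −18.18 in siArglu1. It was the only one of 324 covered events in 43 other pathway genes to differ by at least 15 in both knockdown pairs. It was singled out after its values were seen, and the share of all covered events that did so was not computed. Of these 324 events, 1.54% differed by at least 15 in the Veh pair, beside 1.96% of all covered events. In the Dex pair 0.926% did, beside 1.52%. Another covered exon of Ncor1, of 27 nt, differed by 21.04 in Veh, with VLOW coverage in siArglu1 Veh, and by −4.78 in Dex. In Ncor1, reads numbered 14683 and 15414 in siControl Veh and Dex and 5855 and 9511 in siArglu1 Veh and Dex.

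With Dex, 2 of the 60 other pathway genes passed in the additive edgeR model, where 1.04% of all genes did, and both were chosen after their values were seen. Tle3, a Groucho-family corepressor, had log2 ratios of Dex over Veh of 0.21 in siControl and 0.57 in siArglu1 (adjusted p = 0.0013 in edgeR). Spen, a large corepressor that binds Rbpj, had −0.0019 and 0.69 (adjusted p = 0.01 in edgeR), and 0.04 and 0.43 with the length trend removed; the difference between the arms was not tested.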
